A study of Mus musculus with 40 samples.

Results

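Whole mammary glands of Ezh1 knockout (Ezh1 KO) mice were compared with those of control mice on day 13 of pregnancy (p13). The comparison took every gene of the deposited table that reached 1 FPKM in the Ezh1 KO or the control column, which kept 13520 of 22552 genes. FPKM is a fragment count divided by transcript length and by the library's mapped total, so levels of different genes can be compared per length. The study sequenced poly(A) RNA from glands of virgin mice and of mice at p13 and on day 18 of pregnancy (p18). Each of the 12 groups has 1 pooled value per gene, so values carry no SD, n or p-value, no difference has a replicate check, and the read depth is unknown.

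The p13 control mice carried MMTV-Cre, a Cre recombinase transgene driven by a mouse mammary tumour virus promoter, which is active in mammary epithelium and also in some other tissues. The p13 Ezh1 KO mice are given as E1-/-, from a knockout line, with no Cre named for them, so Cre and Ezh1 genotype cannot be told apart in this comparison. Each of these groups held 3 libraries. Other p13 groups of 3 libraries each were Ezh2 KO (Ezh2f/f with the Cre transgene of the control line) and Ezh1+/- Ezh2 KO (E1+/-;E2f/f with that transgene). At p18 there were 3 control and 2 Ezh1 KO libraries of the same genotypes. The mice were outbred, and their ages at pregnancy are not stated in the labels used here. Mice of the p13 and p18 groups were untreated. The virgin groups were control and Ezh2 KO, each with and without prolactin treatment. All libraries were made from whole tissue, in which fewer cells of a type and less RNA per cell cannot be told apart.

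Polycomb repressive complex 2 (PRC2) has either EZH1 or EZH2 as its catalytic subunit. It methylates histone H3 at the H3K27 position and keeps many developmental genes silent. EZH2 is the more abundant form in dividing cells, while EZH1 is typical of resting and differentiated cells. In pregnancy the mammary epithelium multiplies, forms alveoli and begins to make milk proteins and milk fat inside a pad of white fat.

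The gland's own markers were present in both groups. Krt8 and Krt18, keratins of luminal epithelium, stood at 268 and 283 FPKM in control and at 312 and 347 in Ezh1 KO, and the 12 luminal markers made up 0.232% and 0.277% of the summed FPKM. Markers of other tissues set the groups apart. The 16 skeletal muscle markers made up 1.64% of the summed FPKM in control, 0.423% in Ezh1 KO, 0.00611% in Ezh2 KO and 0.00653% in Ezh1+/- Ezh2 KO. Liver markers without Rbp4, which fat also expresses, made up 0.0831% in Ezh1 KO and 0.00468% in control. Erythroid markers came to 0.773% in control and 0.388% in Ezh1 KO, and white adipocyte markers to 6.17% and 3.97%. These shares moved with the comparison, and their part in the differences of other genes was not tested.

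Most genes had similar levels in both groups. Differences are log2(FPKM + 1) of Ezh1 KO minus control, which makes differences of low genes look smaller. Folds are plain FPKM ratios, with nothing added. The median difference of the kept genes was -0.02, and 85.8% of them lay within 0.5 of 0. At a threshold of 1, 300 genes (2.22%) were higher and 325 (2.40%) were lower in Ezh1 KO. Among the 12828 protein-coding genes, 103 (0.803%) were higher and 291 (2.27%) lower. The leading genes higher in Ezh1 KO were secreted proteins of the liver and enzymes of fatty acid synthesis, and those lower were proteins of the contractile apparatus, Ezh1 itself and several genes of fat. The filter kept 673 genes through 1 column alone, with the other column under 1 FPKM.

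**Figure D1:**
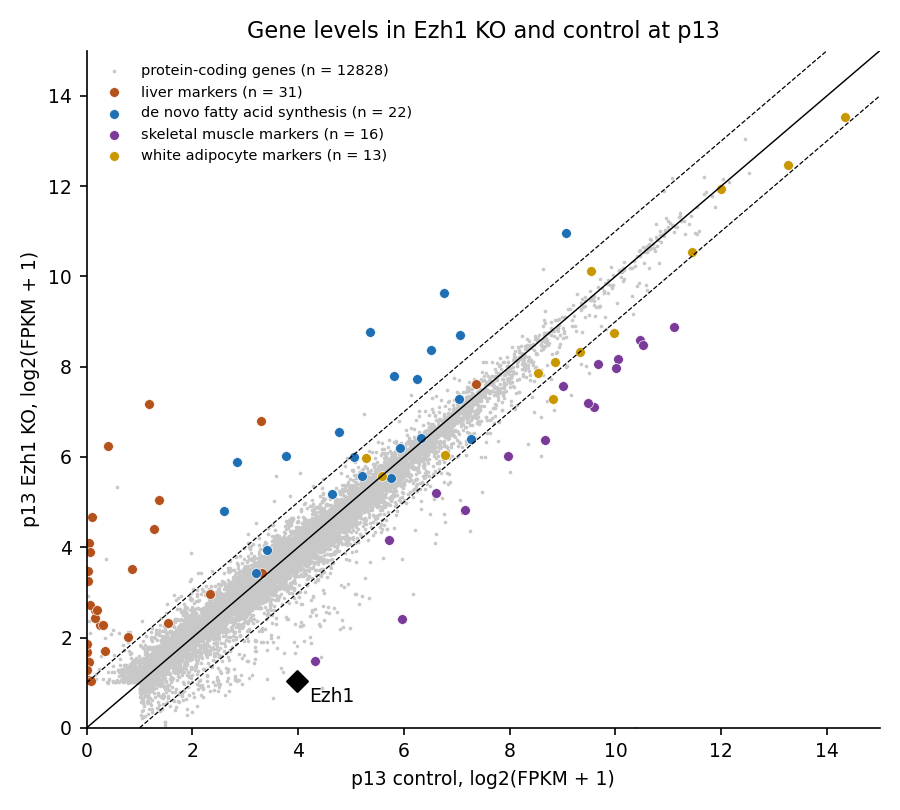
Level of each protein-coding gene kept, as log2(FPKM + 1), in the p13 control (horizontal axis) and p13 Ezh1 KO group (vertical axis), 1 pooled value per group. The solid line marks equal levels and the dashed lines a difference of 1. Most liver markers shown lie above the band, 23 of the 31 having been kept through Ezh1 KO alone, and 11 genes of fatty acid synthesis lie above it, while the 16 skeletal muscle markers and Ezh1 lie below it.

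Ezh1, the deleted gene, stood at 14.7 FPKM in control, 1.06 in Ezh1 KO, 9.50 in Ezh2 KO and 6.17 in Ezh1+/- Ezh2 KO. The Ezh1 KO value was 13.9-fold lower than control, a difference of -2.93, in the direction its label gives. Ezh1 was also the one protein-coding gene of 13069 (0.00765%) that lay at least 1 below each of the other 3 p13 groups in Ezh1 KO. Ezh2 stood at 12.9 FPKM in control, 13.8 in Ezh1 KO, 13.7 in Ezh2 KO and 9.54 in Ezh1+/- Ezh2 KO. The Ezh2 KO value was thus no lower than control, so these whole-tissue values do not show the loss its label gives. In Ezh1 KO the Ezh2 level was 1.07-fold that of control. The other core subunits were as close. Eed, the subunit that binds trimethylated H3K27, was at 15.5 FPKM in control and 16.6 in Ezh1 KO. Suz12, the scaffold of the complex, was at 20.7 and 20.8. Jarid2, an accessory subunit that helps to recruit the complex, had the largest positive difference in the PRC2 list, at 10.9 FPKM in control and 15.3 in Ezh1 KO (0.46). Kdm6a and Kdm6b, which remove the mark, differed by 0.14 and 0.15.

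Of the 13 PRC2 subunits and demethylases kept, of 14 in the table, only Ezh1 passed the threshold. None of the 19 PRC1 genes, whose complex binds the mark and compacts chromatin, passed it, and their median difference was 0.07. Of 33 developmental genes that Polycomb commonly silences, 15 were kept and none of these passed, with a median of -0.22. Of the 15, 10 had values below 0 and 5 above, from -0.71 to 0.63. Hoxa5, a homeobox factor and 1 of the 5, was close to the filter, at 1.03 FPKM in control and 1.76 in Ezh1 KO. The other 18 were below 1 FPKM in both groups. Cdkn2a, the cell cycle inhibitor locus that is a textbook Polycomb target, stood at 0.606 FPKM in control, 1.02 in Ezh1 KO, 0.920 in Ezh2 KO and 5.07 in Ezh1+/- Ezh2 KO. The high value was in Ezh1+/- Ezh2 KO. The Ezh1 KO value was 1.69-fold that of control, but Cdkn2a was kept through Ezh1 KO alone and so had to lie above 0. None of the 6 inhibitors of cyclin-dependent kinases kept passed the threshold, and neither did any of the 20 proliferation genes, whose median was 0.11. Over all genes kept, 2.22% were higher and 2.40% lower, so counts of 0 in these short lists lie near that share.

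**Figure D2:**
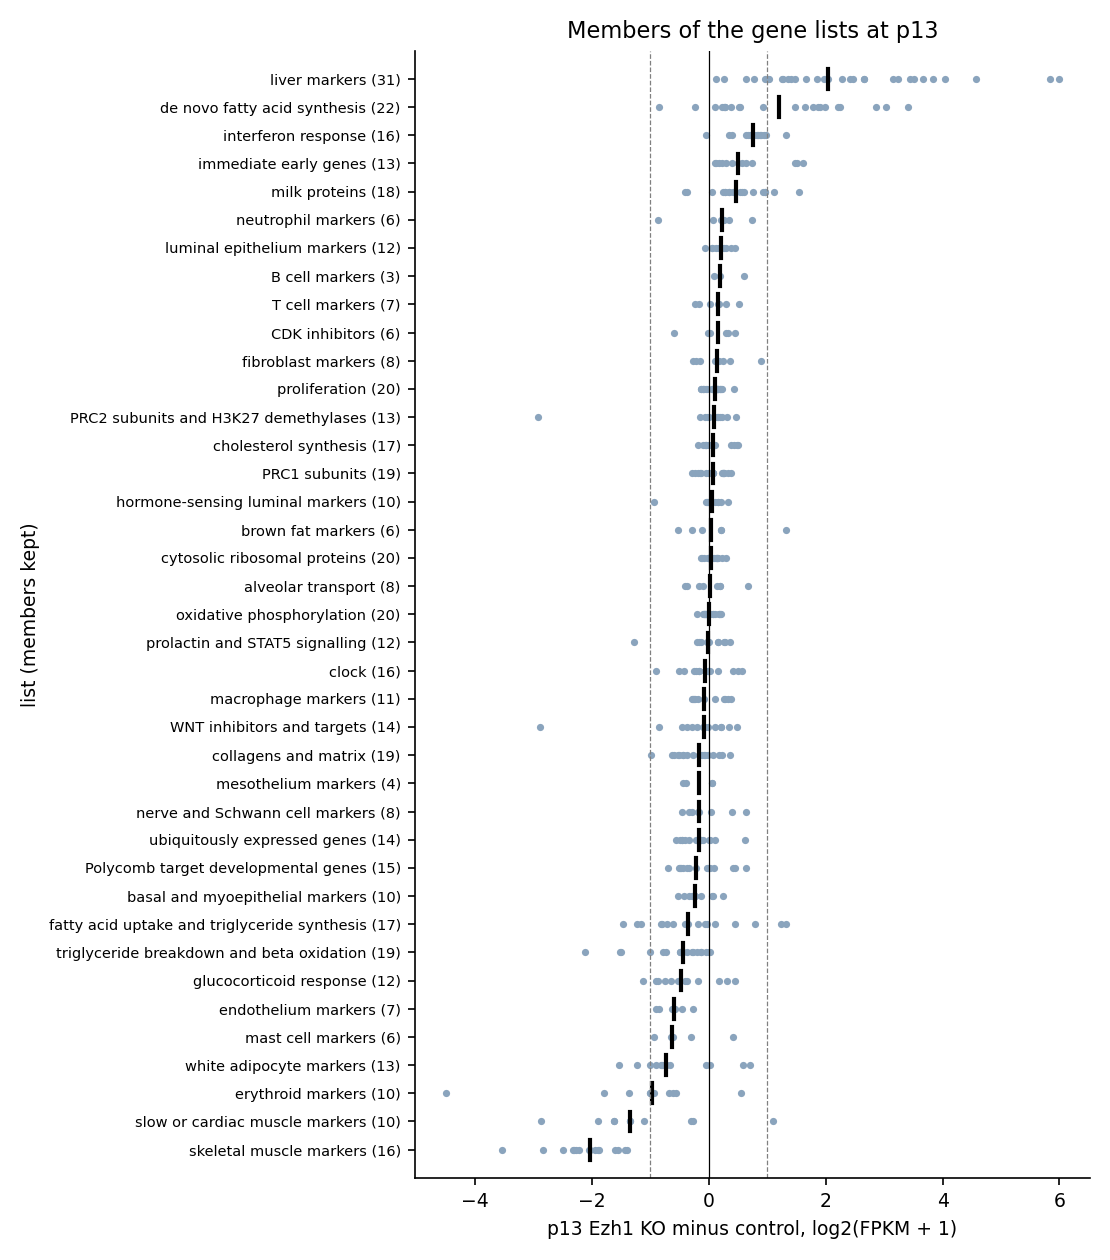
Difference between p13 Ezh1 KO and p13 control for each kept member (points) of the 39 gene lists with 3 or more kept members, with the list median as a black bar and the number kept in parentheses. Dashed lines mark differences of 1 and -1, and Hba-a1 of the erythroid list, at -10.37, is drawn at the left edge. Liver and fatty acid synthesis lists lie highest and skeletal muscle lowest, and 29 of the 39 medians lie within 0.5 of 0.

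De novo fatty acid synthesis turns citrate and acetate into palmitate and then into longer and unsaturated fatty acids. Of its 22 genes kept, of 23 in the table, 11 were higher in Ezh1 KO and 0 lower by the threshold, beside 2.22% and 2.40% of all genes kept. Their median was 1.21, beside -0.02 over all genes. The promoters of Fasn and Thrsp, which lead the list with Elovl6, are shown with that of Alb, a leading gene of the liver list. Each is the 250 bases before the start site in RefSeq (build GRCm38.p6), at chr11:120824548-120824797 on the minus strand for Fasn, chr7:97417551-97417800 on the minus strand for Thrsp and chr5:90460620-90460869 on the plus strand for Alb. Capitals mark CCAAT, the box that the factor NF-Y binds, or its reverse complement ATTGG.
Fasn: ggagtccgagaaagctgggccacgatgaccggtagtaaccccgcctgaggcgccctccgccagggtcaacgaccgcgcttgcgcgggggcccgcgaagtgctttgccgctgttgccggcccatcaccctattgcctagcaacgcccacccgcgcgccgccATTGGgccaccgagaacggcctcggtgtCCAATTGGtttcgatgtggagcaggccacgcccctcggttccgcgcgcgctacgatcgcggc
Thrsp: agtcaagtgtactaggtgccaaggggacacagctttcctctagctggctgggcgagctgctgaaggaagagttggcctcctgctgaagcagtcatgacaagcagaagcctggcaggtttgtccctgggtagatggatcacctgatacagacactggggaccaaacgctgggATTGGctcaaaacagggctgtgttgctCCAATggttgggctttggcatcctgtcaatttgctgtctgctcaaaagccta
Alb: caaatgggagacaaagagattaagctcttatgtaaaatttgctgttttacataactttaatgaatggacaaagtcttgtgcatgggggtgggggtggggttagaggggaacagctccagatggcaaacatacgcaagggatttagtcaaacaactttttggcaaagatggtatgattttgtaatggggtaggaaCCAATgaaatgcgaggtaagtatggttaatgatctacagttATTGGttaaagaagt
Fasn held 3 matches, a pair of which overlap in the run CCAATTGG, and Thrsp and Alb held 2 each. On either strand, CCAAT was present in 10133 of 27025 RefSeq promoters of this length (37.5%), in 13 of the 20 fatty acid synthesis genes with a promoter (65.0%), in 6 of the 10 that were higher in Ezh1 KO (60.0%), and in 12 of 31 liver markers (38.7%). A match is a description of the sequence and was not tested as a binding site.

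Fasn, fatty acid synthase, stood at 39.9 FPKM in control, 435 in Ezh1 KO, 299 in Ezh2 KO and 772 in Ezh1+/- Ezh2 KO, a 10.9-fold higher value in Ezh1 KO than in control. Elovl6, which lengthens palmitate, was at 6.15, 57.8, 27.3 and 90.5 FPKM in the same order. Thrsp, a regulator of fatty acid synthesis in fat, liver and mammary gland, was at 108, 788, 695 and 1515. Control was the lowest of the 4 p13 groups for each of these genes, and Ezh1 KO lay between Ezh2 KO and Ezh1+/- Ezh2 KO. Across all 12 groups of the study, virgin and p18 glands included, the p13 control was also the lowest for Fasn, Thrsp, Elovl6 and Acly. For Fasn the next lowest group, the p18 Ezh1 KO, stood at 152 FPKM. White adipocytes also make fatty acids. Their markers made up 6.17% of the summed FPKM in control, 3.97% in Ezh1 KO, 2.20% in Ezh2 KO and 4.38% in Ezh1+/- Ezh2 KO. Control had the highest share, and the other p13 groups had the same order as for Fasn, Elovl6 and Thrsp. Whether the share of fat bears on these genes was not tested.

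The steps before and after the synthase had the same order of groups, as did all 11 genes past the threshold. Acly, which makes cytosolic acetyl-CoA from citrate, was at 55.0 FPKM in control, 222 in Ezh1 KO, 171 in Ezh2 KO and 397 in Ezh1+/- Ezh2 KO. Acss2, which makes it from acetate, was at 12.7, 64.0, 28.4 and 110. Acaca, the carboxylase that commits acetyl-CoA to the pathway, was at 26.5, 93.6, 77.5 and 157. These are 4.03-fold, 5.05-fold and 3.54-fold higher values in Ezh1 KO than in control. Scd1, the desaturase that makes oleate, was the most abundant member, at 536 FPKM in control and 2007 in Ezh1 KO. Slc25a1, the mitochondrial citrate carrier, was at 75.1 and 211, and Me1 and Tkt, which supply NADPH and pentose phosphate intermediates, were 3.68-fold and 3.13-fold higher. Pnpla3, a lipid droplet protein that is switched on with lipogenesis, was at 5.06 and 27.1.

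The main transcriptional regulators of the pathway did not pass the threshold. Srebf1, which encodes the factor that drives lipogenic genes, was at 59.6 FPKM in control and 72.7 in Ezh1 KO (0.28), and Mlxipl, the carbohydrate-response factor, was at 9.69 and 14.3 (0.51). G6pdx, the first enzyme of the pentose phosphate pathway, lay the other way, at 153 and 83.9 (-0.86), and Scd2 fell just short of the threshold (0.93). The 17 genes of cholesterol synthesis kept had a median of 0.08 and none passed the threshold, beside 2.22% higher and 2.40% lower of all genes.

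**Figure D3:**
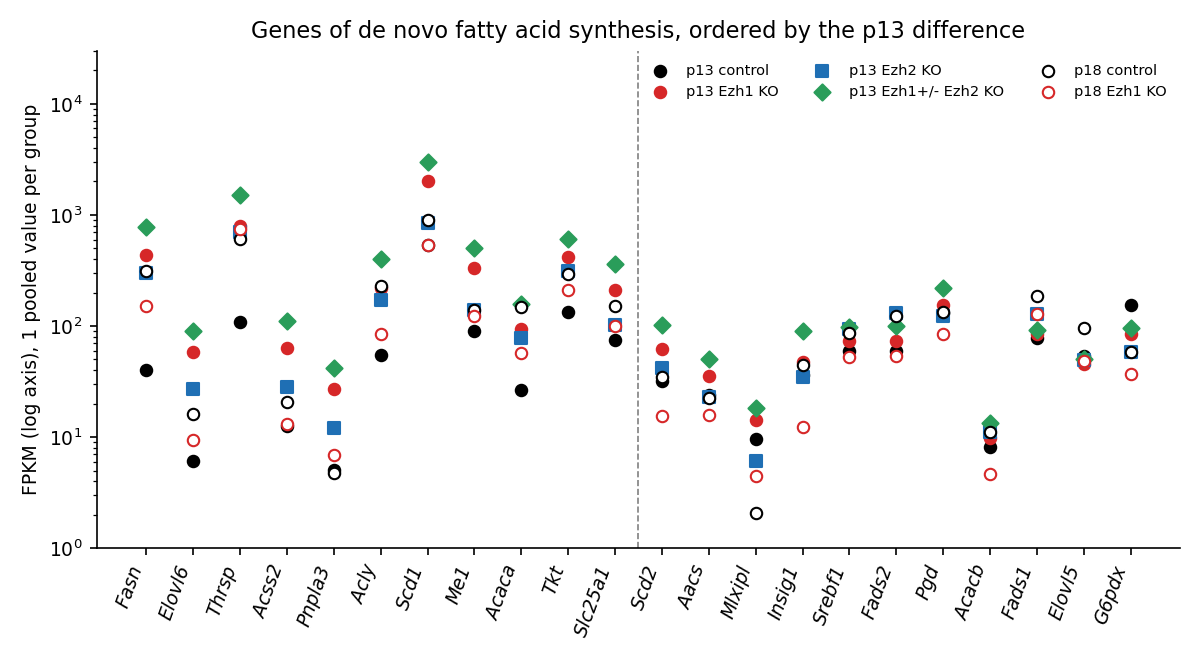
FPKM (log axis) of the 22 kept genes of de novo fatty acid synthesis in the 4 p13 groups (filled symbols) and in the p18 control and Ezh1 KO groups (open circles), 1 pooled value per group, ordered by the p13 difference between Ezh1 KO and control. Left of the dashed line are the 11 genes higher in Ezh1 KO by the threshold; there the p13 control lies lowest of the 4 p13 groups, while at p18 the Ezh1 KO value lies below control for 9 of the 11.

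Genes that take up, store or burn fat had medians below 0. Of 17 genes of fatty acid uptake and triglyceride synthesis, 2 were higher and 3 lower, beside 2.22% and 2.40% of all genes. Their median was -0.35. Agpat2, an acyltransferase of triglyceride synthesis, was at 69.5 FPKM in control and 166 in Ezh1 KO. Cidea, a lipid droplet protein linked to milk fat secretion and to brown fat, was at 3.28 and 9.75, with 50.3 in Ezh2 KO. Lower in Ezh1 KO were Cd36, a fatty acid transporter (1281 and 571), Cidec, a droplet protein of white fat (1006 and 429), and Plin4, a droplet coat protein (350 and 126). Of 19 genes of triglyceride breakdown and beta oxidation, 17 had values below 0, with a median of -0.45. Past the threshold were 4, all lower, beside 2.40% of all genes. Pdk4, which restrains glucose oxidation, was at 94.5 FPKM in control and 32.8 in Ezh1 KO, Cpt1b, the muscle form of the carnitine transferase, at 8.25 and 2.24, and Pnpla2, the adipose triglyceride lipase, at 639 and 318. Control was the highest of the 4 p13 groups for all 3 of these genes.

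White adipocyte markers had values below 0 in 10 of 13. Of these, 3 passed the threshold, beside 2.40% of all genes, and the median of the 13 was -0.74. Lep, the hormone leptin, was at 452 FPKM in control, 156 in Ezh1 KO, 67.6 in Ezh2 KO and 127 in Ezh1+/- Ezh2 KO. Adipoq, adiponectin, was at 2780 and 1491 in control and Ezh1 KO, and Fabp4, the fatty acid carrier of adipocytes and the most abundant member, at 20826 and 11774. Retn, resistin, and Adrb3, the adipocyte adrenergic receptor, lay the other way, at 744 and 1112 and at 37.8 and 62.2. Genes of fat also stood among the lowest values of the whole comparison. Sfrp5, a secreted WNT inhibitor of adipocytes, was at 152 FPKM in control, 19.7 in Ezh1 KO, 6.77 in Ezh2 KO and 8.06 in Ezh1+/- Ezh2 KO. Mest, an imprinted gene linked to adipocyte enlargement, was at 387, 63.6, 26.5 and 56.9. Both were highest in the p13 control of all 12 groups. Ghr, the growth hormone receptor, was at 652 and 267 in control and Ezh1 KO. Vnn1, a pantetheinase, was 10.4-fold lower in Ezh1 KO, and Mrgprg, an orphan receptor, 24.2-fold lower (20.8 and 0.858).

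Milk protein genes had a median difference of 0.47, beside 1.21 for fatty acid synthesis. Of 18 kept, 16 had values above 0. Past the threshold were 2, both higher (4 after rescaling to a common sum), beside 2.22% of all genes. Glycam1, a mucin-like milk protein, stood at 396 FPKM in control, 1151 in Ezh1 KO, 12834 in Ezh2 KO and 5755 in Ezh1+/- Ezh2 KO. Csn1s2a, a calcium-sensitive casein, was at 2153, 4659, 32011 and 13312, and Csn2, beta-casein, at 5570, 8447, 42713 and 19742. Control was lowest and Ezh1 KO next for all 3 genes. The late milk genes were low in both groups, with Wap, whey acidic protein, at 25.0 and 30.3 FPKM and Lalba, the lactose synthase subunit, at 5.53 and 10.1. Genes upstream of milk synthesis were close. Elf5, the alveolar transcription factor, was at 131 and 158, Stat5a, which prolactin activates, at 32.1 and 39.3, and Prlr, the prolactin receptor, at 5.78 and 5.77. None of the 8 alveolar transport genes or 12 luminal markers kept passed the threshold, and of the 12 prolactin and STAT5 genes only Ghr did. The shares over all genes kept were 2.22% higher and 2.40% lower.

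Liver markers led the genes higher in Ezh1 KO, with 10 of the 15 largest differences among protein-coding genes at 5 FPKM or more. Apoa2, an apolipoprotein of high-density lipoprotein, stood at 1.26 FPKM in control, 143 in Ezh1 KO, 1.23 in Ezh2 KO and 6.62 in Ezh1+/- Ezh2 KO. Fabp1, the fatty acid carrier of liver and gut, was at 0.322, 74.3, 0.217 and 2.94. Alb, serum albumin, was at 8.78, 110, 4.57 and 16.7. Ezh1 KO was the highest of the 4 groups for each and Ezh1+/- Ezh2 KO the next. Ttr, the thyroid hormone carrier, was at 0.0702 FPKM in control and 24.6 in Ezh1 KO, Apoa1 at 0.0370 and 16.0, and Hamp, the iron hormone hepcidin, at 0.0478 and 13.9. Gc, the vitamin D carrier, Serpina1c, a protease inhibitor, Apoc3 and Mup3, a urinary protein, were the others of the 10. All 38 list members in the table had a higher FPKM in Ezh1 KO than in control, and over these 38 the median difference was 1.57. Of the 31 kept, 23 reached 1 FPKM in Ezh1 KO alone and so had to lie above 0. With that limit, 26 of the 31 passed the threshold, beside 2.22% of all genes. Of 14 intestine and kidney markers, 7 had a higher FPKM in Ezh1 KO and 13 were below 1 FPKM in both groups. The 1 kept, through Ezh1 KO alone, was Fabp2, a fatty acid carrier of the gut (0.0416 and 1.11 FPKM).

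Ezh1 KO lay at least 1 above each of the other 3 p13 groups for 45 protein-coding genes (0.344% of 13069), and 24 of these were in the liver list. The other 3 groups carried the Cre transgene and Ezh1 KO had none named, so Cre and Ezh1 genotype cannot be told apart here. Others of the 45 encode further products typical of liver, such as Apoc4 (0.290 FPKM in control and 12.3 in Ezh1 KO), Rgn (0.272 and 3.65), and Bhmt, the betaine methyltransferase, listed at 0 in control and at 2.66 in Ezh1 KO. Apoc4, Rgn and Bhmt were kept through Ezh1 KO alone and so had to lie above control, as did 23 of the 31 liver markers kept. Bhmt, at 0 in control, was bound to pass the threshold against it. Liver transcripts were also present in virgin glands. Alb stood at 41.5 FPKM in the untreated virgin control and 43.4 in the untreated virgin Ezh2 KO, and Apoa2 at 7.22 and 40.3. At p18 Alb was at 2.57 FPKM in control and 2.06 in Ezh1 KO, and the liver list had a median difference of -0.02. Whether the liver transcripts at p13 came from 1, 2 or all 3 libraries of the Ezh1 KO group cannot be told apart in a pooled column.

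**Figure D4:**
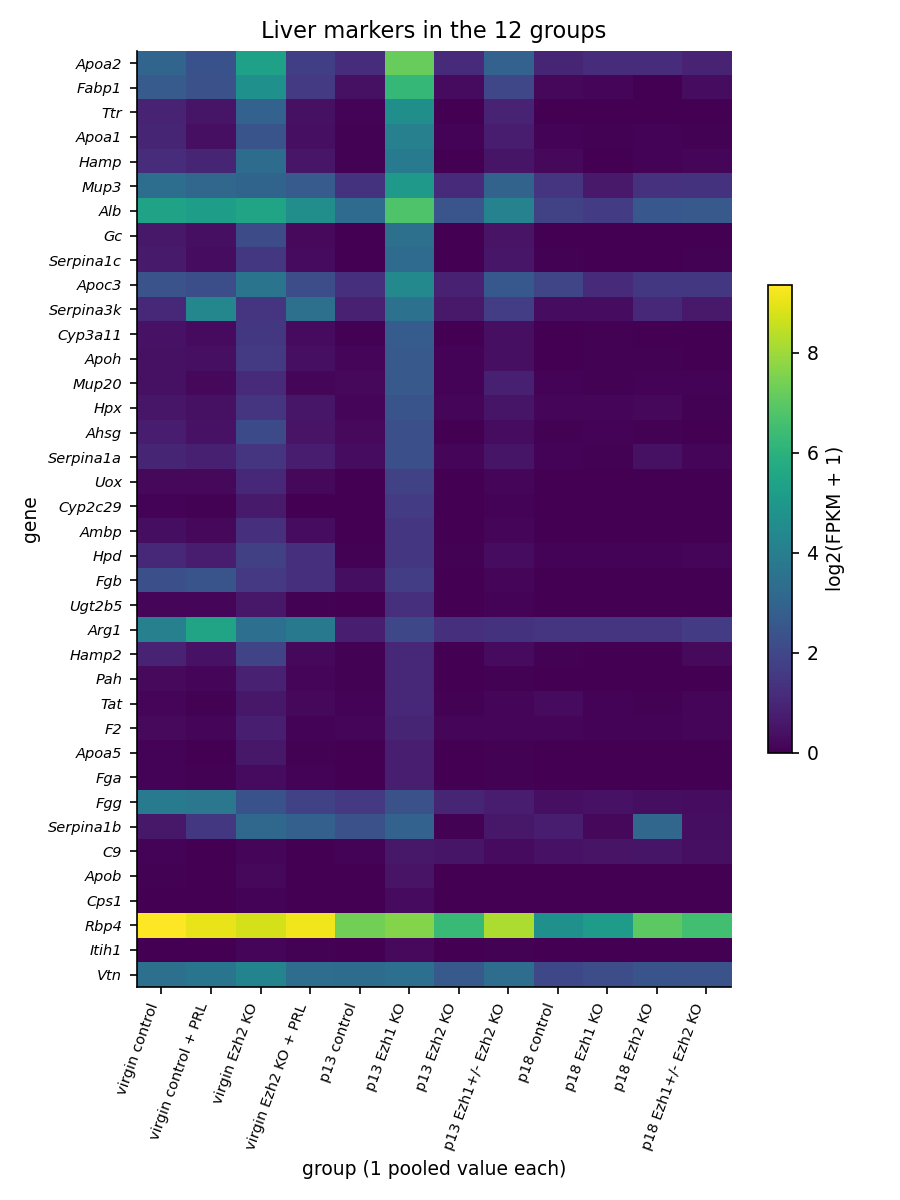
Level, as log2(FPKM + 1), of the 38 liver markers (rows, ordered by the p13 difference between Ezh1 KO and control) in the 12 groups of the study (columns, 1 pooled value each, PRL meaning prolactin). The p13 Ezh1 KO column is the brightest for 29 of the 38 rows and the untreated virgin Ezh2 KO column comes next for 27 of those, while Rbp4 and Vtn, at the bottom, have similar levels in the p13 control and Ezh1 KO columns.

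Skeletal muscle markers were lower in Ezh1 KO. All 16 muscle markers were kept through both columns. All 16 were lower by the threshold, beside 2.40% of all genes, with a median of -2.04. Ckm, muscle creatine kinase, stood at 1404 FPKM in control, 383 in Ezh1 KO, 1.45 in Ezh2 KO and 2.07 in Ezh1+/- Ezh2 KO. Acta1, skeletal actin, was at 2211, 471, 5.36 and 5.13, and Myh4, a fast myosin heavy chain, at 715, 147, 0.701 and 1.40. The control was highest, the Ezh1 KO next, and the other p13 groups lay far below both. The ratio of control to Ezh1 KO ran from 2.67 to 14.1 over the 16 genes, with a median of 4.12, and Myh1 and Myh2, other fast myosins, had the largest ratios. Of 10 slow or cardiac muscle markers kept, 7 were lower, beside 2.40% of all genes. Of the 10, 6 were kept through control alone and so had to lie below 0. The 1 that was higher, Tnni3 (0.730 and 2.71 FPKM), was kept through Ezh1 KO alone and so had to lie above 0. The median of the 10 was -1.35, and -0.71 over all members in the table. The contractile or muscle genes Mybpc1, Cacna1s, Nrap, Cox6a2 and Atp2a1 were among the 15 lowest protein-coding genes, as was Myl2, a slow and cardiac myosin light chain (10.5 and 0.581 FPKM). Of the 291 protein-coding genes lower in Ezh1 KO, 23 were in the muscle lists.

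Of 10 erythroid genes kept, 4 were lower by the threshold, beside 2.40% of all genes, but 2 of the 10 were kept through control alone and so had to lie below 0. With a pseudocount of 5 or a filter of 5 FPKM 2 were lower. The median was -0.97, and -0.81 over all members in the table. Alas2, the erythroid enzyme of haem synthesis, was at 100 FPKM in control and 51.9 in Ezh1 KO, Hbb-b1 at 458 and 131, and Hbb-b2 at 186 and 272. Hba-a1 was at 1320 FPKM in control and listed at 0 in Ezh1 KO, but it has a near-identical copy, Hba-a2, among which reads can be split, so its value is uncertain.

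Immediate early genes, which respond rapidly to growth signals and to stress, had values above 0 in all 13, and 3 were higher by the threshold, beside 2.22% of all genes, with a median of 0.50. Egr1 stood at 15.4 FPKM in control, 49.2 in Ezh1 KO, 37.8 in Ezh2 KO and 35.1 in Ezh1+/- Ezh2 KO. Fos was at 10.7, 31.5, 14.1 and 16.2, and Fosb, kept through Ezh1 KO alone and so bound to lie above 0, at 0.523, 3.31, 0.550 and 1.15. Ezh1 KO was the highest of the 4 p13 groups for all 3. Glucocorticoid response genes had a median of -0.47, and Tsc22d3, a hormone-induced leucine zipper protein, was at 89.0 FPKM in control and 40.2 in Ezh1 KO.

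Interferon response genes had values above 0 in 15 of 16, with a median of 0.76. Mx1, an antiviral GTPase, was the 1 member past the threshold (0.633 and 3.05 FPKM), beside 2.22% of all genes. Mx1 was kept through Ezh1 KO alone and so had to lie above 0. After rescaling to a common sum 3 members passed, and with a pseudocount of 5 or a filter of 5 FPKM 0 did. Irf7, a transcription factor of the response, stood at 20.8 FPKM in control, 38.9 in Ezh1 KO, 74.8 in Ezh2 KO and 94.9 in Ezh1+/- Ezh2 KO. Isg15, a ubiquitin-like protein, was at 32.9, 58.6, 95.3 and 123. Control was the lowest and Ezh1 KO the next for both. Endothelial markers, 7 in number, were all below 0 with a median of -0.60, and none passed the threshold, with Pecam1 at 76.3 FPKM in control and 50.5 in Ezh1 KO. The medians of the B cell, T cell and macrophage lists were 0.19, 0.16 and -0.08, with no member past the threshold. For these and the endothelial list, the shares over all genes kept were 2.22% higher and 2.40% lower.

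The place of control and Ezh1 KO among the 4 p13 groups was then described. The control value enters all 3 of its comparisons, so a gene at which control stands apart gives no separate evidence for any genotype. Control lay at least 1 above each other group for 253 protein-coding genes (1.94%) and below each for 21 (0.161%). Ezh2 KO lay above for 17 (0.130%) and below for 103 (0.788%), and Ezh1+/- Ezh2 KO above for 48 (0.367%) and below for 7 (0.0536%). Of the 291 protein-coding genes lower in Ezh1 KO than in control, 253 were those at which control stood above all other groups, 1 was Ezh1, and 37 were neither. Of the 103 that were higher, 45 were those at which Ezh1 KO stood above all others, 21 those at which control stood below all others, and 37 were neither. The 21 included 8 genes of fatty acid synthesis, and also Glycam1, Csn1s2a, Cidea, Egr1 and Slc2a5, a fructose transporter at 0.0396 FPKM in control, 5.27 in Ezh1 KO, 2.20 in Ezh2 KO and 8.20 in Ezh1+/- Ezh2 KO.

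Against the Ezh2 KO group in place of control, Ezh1 KO was higher for 390 protein-coding genes (3.05%) and lower for 117 (0.916%). Against Ezh1+/- Ezh2 KO it was higher for 168 (1.31%) and lower for 129 (1.01%). The fatty acid synthesis list had a median of 0.48 against Ezh2 KO and -0.59 against Ezh1+/- Ezh2 KO, and the milk protein list -1.68 and -0.93.

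The p18 glands gave a comparison of the same genotypes in other libraries. There 100 of 11859 protein-coding genes (0.843%) were higher and 126 (1.06%) lower in Ezh1 KO. Across the 13520 genes kept at p13, the differences at the stages had a Pearson r of -0.04 and a Spearman rho of 0.09, which describe genes and not replicates. Ezh1 was lower at p18 too, at 7.37 FPKM in control and 0.627 in Ezh1 KO (-2.36). The leading groups of p13 were not placed alike at p18. Fatty acid synthesis genes had a median of -0.67 at p18, with 0 higher and 7 lower. Fasn stood at 315 FPKM in the p18 control and 152 in the p18 Ezh1 KO, Acly at 228 and 85.1, and Acaca at 147 and 57.5. Skeletal muscle markers had a median of 1.13 at p18, with Ckm at 6.13 and 20.7. White adipocyte markers had a median of 0.81, with Adipoq at 333 and 593, erythroid markers 1.99 and milk proteins -0.29.

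Few protein-coding genes passed the threshold in the same direction at both stages, and those named here were taken after their values were seen. Of 54 that were higher at p13 and kept at p18, 3 were higher at p18 (5.56%, beside 0.825% of all 11756 protein-coding genes kept at both stages) and 5 were lower (9.26%, beside 0.995%). Akr1c18, the enzyme that inactivates progesterone, was at 13.4 FPKM in the p13 control, 34.4 in the p13 Ezh1 KO, 2.46 in the p18 control and 6.98 in the p18 Ezh1 KO. Gjb6, the gap junction protein connexin 30, was at 7.30, 18.5, 24.5 and 68.3, but at p13 it was higher still in Ezh2 KO (52.9). The third was Gm5506, at 0.480, 39.6, 0.311 and 23.1 FPKM, an enolase-like retrocopy that can share reads with its parent gene, so its level is uncertain. The 5 that were lower at p18 were Fasn, Acly, Acaca, Cidea and Mup10. Of 159 that were lower at p13, 2 were lower at p18, Ezh1 and Palld, an actin-associated protein at 23.7, 10.6, 6.40 and 2.61 FPKM. These are 1.26%, near the 0.995% of all. Another 21 (13.2%) were higher, muscle genes, globins and Lep among them. Akr1c18 at p13 was higher in Ezh1 KO than in each other group, with 3.01 FPKM in Ezh2 KO and 12.5 in Ezh1+/- Ezh2 KO, whereas Palld in Ezh1 KO lay close to Ezh2 KO (11.2).

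**Figure D5:**
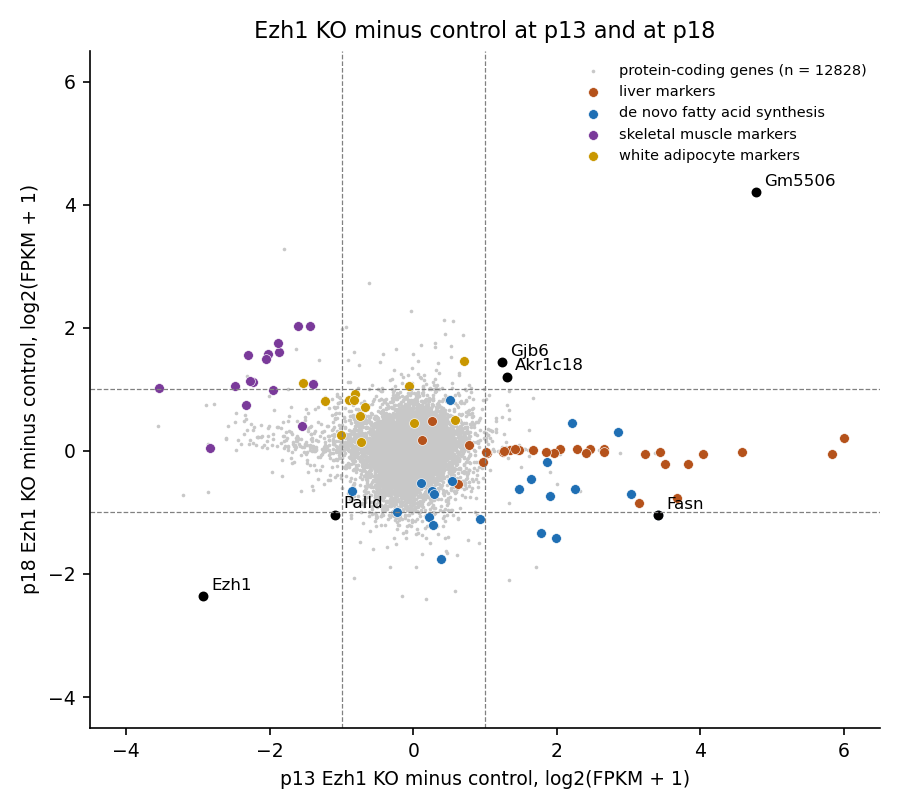
Difference between Ezh1 KO and control, log2(FPKM + 1), at p13 (horizontal axis) and p18 (vertical axis) for the protein-coding genes kept at p13, with 4 lists coloured and dashed lines at 1 and -1; Hba-a1 lies outside the axes. Liver markers spread along the p13 axis and mostly near 0 at p18, most muscle markers lie at the upper left, and Ezh1 lies farthest to the lower left.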

How the data were processed

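Groups came from the sample labels. The series' 9 ChIP-seq samples were not analysed here. The deposited table gives FPKM for 22552 genes in 12 columns, each the authors' pooled value of a group, and how they pooled libraries was not given in the sources used here. Build mm9, TopHat, Cufflinks and Cuffdiff, and also BWA, Bowtie, HOMER, CASAVA, FastQC and Trim Galore, are named per the submitters' processing notes, without roles or versions. Pooling hides variation between mice, and strand use in counting is not stated.

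Genes with at least 1 FPKM in either compared column were kept, and differences of log2(FPKM + 1) of 1 or more were counted. A linear model could not be fitted to 1 value per group. Gene types came from RefSeq symbols (GRCm38.p6), 20004 by symbol, 2310 by synonym and 238 unmatched. No coordinates of the table's genes are given, since the builds differ. Named genes were Ezh1, Ezh2 and the 15 largest differences per direction among protein-coding genes at 5 FPKM or more in Ezh1 KO or control. Also taken were up to 10 per direction of those at which Ezh1 KO stood apart, and the leading and most abundant members of each list. The text names part of these, and some other genes, such as Slc2a5, were named outside this rule. Some genes taken by the rule are not reported here. The comparison and the 41 lists were chosen with earlier results of these data known. Other pseudocounts, filters, scalings and thresholds were tried, and the closing section gives their effect. Motifs were searched on both strands. The functions were tested on simulated data. Scripts ran in Python 3.11.15 with NumPy 2.4.6, pandas 2.3.3, matplotlib 3.10.9 and SciPy 1.17.1.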

Additional observations from a re-analysis of the deposited data

How the results depend on the processing

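With 1 pooled value per group, no replicate could be left out, and low genes depend most on the scale because depth is unknown. No paired analysis was possible because the deposited columns are pooled by group and carry no replicate numbers. The 300 genes higher in Ezh1 KO became 181 with a pseudocount of 5, 103 with protein-coding genes alone and 141 at a threshold of 2. The 325 lower became 153 with a pseudocount of 5 and 70 at a threshold of 2. Genes of all types at which Ezh1 KO lay above each other p13 group numbered 135, and 89 with a pseudocount of 5, 45 with protein-coding genes alone and 51 at a threshold of 2; those below numbered 6, and 1 with protein-coding genes alone. Rescaling to a common sum or upper quartile moved the median of all genes by 0.056 to 0.057 and turned the small median of the prolactin and STAT5 list from -0.01 to 0.05. Other small medians changed sign too. With a filter of 5 FPKM, alveolar transport went from 0.02 to -0.14 and brown fat from 0.04 to -0.30. Alveolar transport was at -0.01 with a pseudocount of 5, and mesothelium went from -0.17 to 0.01 with no filter. Of 269 list medians recomputed under 7 settings, 263 stayed within 0.5 of the value reported. The 6 others were the liver list (3.84 with a pseudocount of 0.1, 0.77 with 5, and 3.24 with a filter of 5 FPKM) and the slow or cardiac muscle list (-2.21, -0.47, and -0.71 with no filter). At a threshold of 2, 5 fatty acid synthesis genes and 16 liver markers were higher and 9 skeletal muscle markers lower; with a pseudocount of 5, 12 liver markers were higher.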

Other observations

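Small RNA genes made up much of the difference between the counts of all genes and of protein-coding genes. Of 239 small RNA genes kept, 165 were higher and 26 lower in Ezh1 KO, beside 2.22% and 2.40% of all genes kept. Control was listed at 0 for 69 of the 165, and Ezh1 KO for 23 of the 26. A kept gene at 0 in 1 column was bound to pass the threshold. Among 152 microRNA genes, 103 were higher, 62 of them with control listed at 0, and their summed FPKM was 4666 in control and 13950 in Ezh1 KO. Among 79 small nucleolar RNA genes, 60 were higher, and their summed FPKM was 2598 and 17635. Libraries of poly(A) RNA are not made to capture such short transcripts.

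Genes next to Ezh1 were listed by their order in RefSeq, 10 on each side. Of these 20 neighbours only Wnk4, a kinase of salt transport, passed the threshold at p13, at 2.22 FPKM in control, 6.17 in Ezh1 KO, 2.85 in Ezh2 KO and 3.15 in Ezh1+/- Ezh2 KO. It was singled out after its values were seen, and 2.22% of all genes kept were higher by the threshold. The other 19 had differences from -0.78 to 0.60. At p18 Wnk4 was at 2.10 FPKM in control and 2.97 in Ezh1 KO, and none of the 20 passed the threshold.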
